A study of Mus musculus with 2 samples.

Results

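The genes that lie on either side of the imprinted gene Impact on mouse chromosome 18 were described here on a pair of expression arrays. They are a chosen set of neighbours in gene order, not every gene of the stretch. No measured value entered the rule, but the set was chosen with earlier results of these data known. Rbbp8, Npc1, Ttc39c and Osbpl1a precede Impact in gene order, and Zfp521, Ss18 and Taf4b follow it. The array annotation gave 14 probe sets that name exactly 1 of these genes, out of 45101 probe sets for 18194 genes, and they covered 6 of the 7 genes. No value is given for Rbbp8, which was not analysed here. The matUPD18 array carried RNA from whole embryos at 8.5 days post coitum (dpc) that received chromosome 18 entirely from the mother, a state called maternal uniparental disomy. The patUPD18 array carried RNA from embryos of the same age that received it entirely from the father. The sources used here do not give the strain background, the sex or the number of embryos per array. There was 1 array per genotype, so the pair gave no test, no p-value and no error between embryos.

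Genomic imprinting silences a gene on the copy inherited from one particular parent. Many imprinted genes sit in clusters whose members share a control element, so the neighbours of an imprinted gene are often asked whether they are read by parent of origin too. Impact, which encodes an inhibitor of the kinase GCN2, is read from the paternal copy in the mouse. Embryos of both kinds carry a pair of copies of each flanking gene. A flanking gene read from the paternal copy alone would lack transcript in matUPD18, and one read from the maternal copy alone would lack it in patUPD18. The comparison asks whether any flanking gene differs between the arrays in such a way. The flanking genes have products of several kinds. They act in cholesterol handling (Npc1 and Osbpl1a), in transcription and chromatin (Ss18, Taf4b and Zfp521) and in DNA repair (Rbbp8), while Ttc39c encodes a protein with tetratricopeptide repeats.

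Values are the deposited MAS5 signals, in arbitrary units on a linear scale. A signal depends on the probes as well as on the transcript, so levels were compared between arrays within a probe set and never between probe sets. A probe set was called measurable where its signal reached the array's 60th percentile on at least 1 array (a signal of 190.1 for matUPD18 and of 184.9 for patUPD18). Signals under an array's 40th percentile (84.2 and 82.5) were raised to that floor before a ratio was taken. Log2 ratios are matUPD18 over patUPD18. Among 10214 measurable probe sets that shared a gene with another (4005 genes), the log2 ratios of 1 gene had a pooled standard deviation (SD) of 0.44. That spread lies between probe sets of a gene, is not an error between replicates and leaves out differences between embryos. In RNA of whole embryos, fewer cells of a type and less RNA per cell cannot be told apart.

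The tissue label was checked against marker genes. Of 6 heart markers, 5 were measurable and none was 2-fold apart, beside 4.48% of all measurable genes. Among them Myh6 read 12932 and 12226 (matUPD18 first, here and below), while Nkx2-5 read 146.8 and 143.7, under the measurable limit. All 8 neural tube markers were measurable. Of 5 measurable somite and presomitic mesoderm markers, 4 read higher in patUPD18 (median log2 ratio -0.43). Among these Msgn1 was at least 2.47-fold higher there, and the fifth, Dll1, was 1.99-fold higher in matUPD18. Of 10 yolk sac visceral endoderm markers, 9 were at least 2-fold higher in matUPD18, and their summed signal was 34717 on that array and 5313 on the other. Of 7 measurable primitive red cell markers, all 7 read higher in patUPD18 and 4 passed 2-fold, with sums of 45493 and 68985 over the 8 markers that have a probe set. No marker of either list was listed at 0, and 1 red cell marker (Epb42) lay under the floor on both arrays. The part of these tissues in the ratios of the flanking genes was not tested. The arrays' 18 bacterial and phage hybridisation controls, which are added in fixed amounts, had a median log2 ratio of -0.56. Scaling the arrays to them moved the median over all measurable genes from -0.04 to 0.52, and directions given below hold for the deposited scaling.

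Impact, known as paternally expressed, served as the point of comparison. Its probe set 1415911_at, designed on the RefSeq mRNA, read 328.4 in matUPD18 and 2466 in patUPD18. The log2 ratio was -2.91, the largest in size among 974 probe sets of like signal. The matUPD18 signal still lay above the floor and the measurable limit, so a signal above the floor cannot by itself show that a gene was read from a given parent's copy. The other Impact probe sets did not share the difference, and the measurable one of them was higher in matUPD18 (log2 ratio 0.39), with signals of 268.2 and 205.3 for 1446750_at and of 97.3 and 52.5 for 1446751_s_at.

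No measurable probe set of a flanking gene was 2-fold apart with the deposited scaling. With the arrays scaled to the hybridisation controls 1 was (Taf4b, log2 ratio 1.52), while the count over all measurable probe sets rose from 1080 to 3633. With the deposited scaling, 5.54% of 19481 measurable probe sets were at least 2-fold apart (3.6% higher in matUPD18 and 1.94% higher in patUPD18), so 0 of 9 is near this background. By gene, with the brightest probe set standing for each, the shares were 4.48% of 10485 genes (2.7% and 1.78%), and the flanking genes gave 0 of 6. Log2 ratios of the 9 probe sets ran from -0.16 to 0.96, of which 7 were above 0, beside 49.0% of all measurable probe sets. For 8 of them the ratio was smaller in size than the 0.44 spread between probe sets of a gene, and the remaining probe set was of Taf4b. The lower and upper quartiles over all 19481 measurable probe sets were -0.30 and 0.31. A ratio smaller in size than 0.44 was therefore common on these arrays and does not set the flanking genes apart. The median over the 6 genes was 0.23, beside -0.04 over all measurable genes. Every one of the 9 probe sets read at least 187.7 on both arrays, above either floor.

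**Figure D1:**
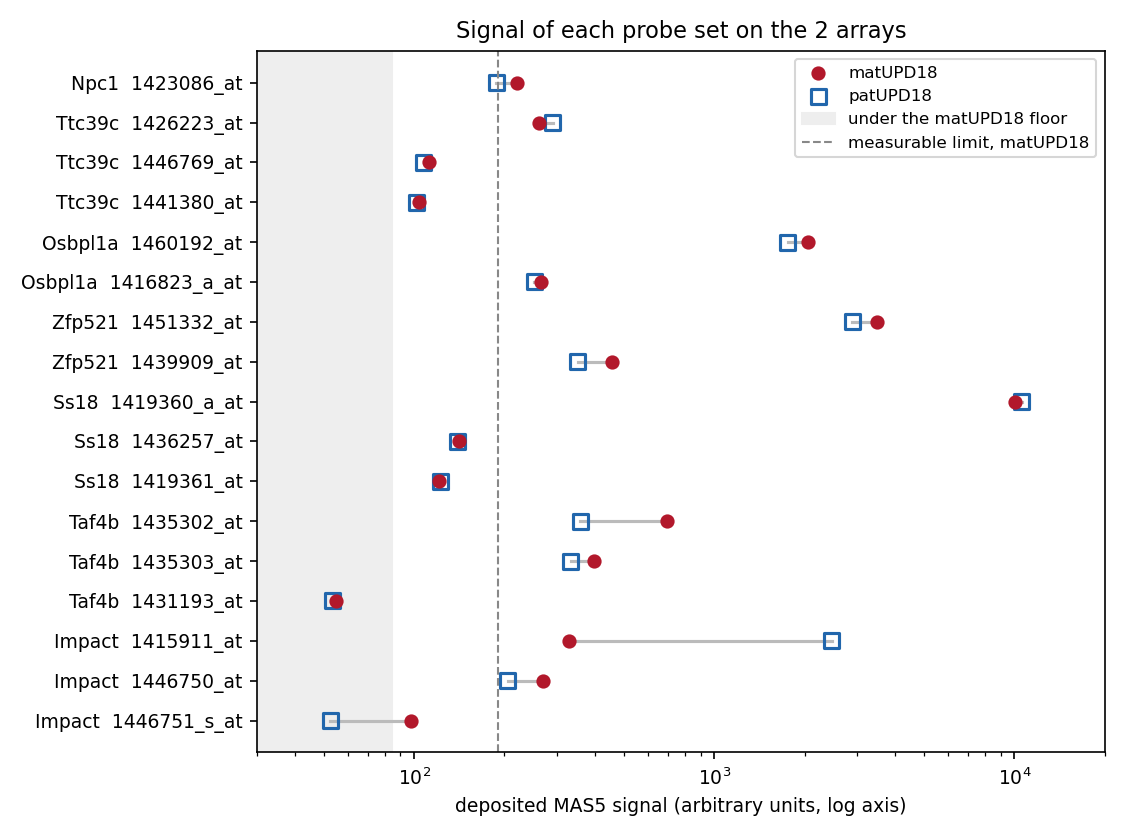
Deposited MAS5 signal (log axis, arbitrary units) of each probe set of the flanking genes and of Impact, with 1 point per array: filled circles matUPD18, open squares patUPD18. The grey zone lies under the matUPD18 floor (84.2) and the dashed line is the matUPD18 measurable limit (190.1). The pairs of the flanking genes nearly coincide except for 1435302_at of Taf4b (694.7 and 357.4), while 1415911_at of Impact is far apart (328.4 and 2466).

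Both genes of sterol handling read slightly higher in matUPD18. Npc1 encodes the late endosomal membrane protein that exports cholesterol from lysosomes, and its loss causes Niemann-Pick disease type C. Its only probe set, 1423086_at, read 219.9 in matUPD18 and 187.7 in patUPD18. These signals lie close to the measurable limits, and the difference was 1.17-fold (log2 ratio 0.23). Among 974 probe sets of like signal the SD of the ratio was 0.55, so a difference of this size was well inside the spread. Osbpl1a encodes ORP1, an oxysterol-binding protein whose long form sits on late endosomes and senses cholesterol. It is the nearest measurable gene before Impact. Its brighter probe set, 1460192_at, read 2055 in matUPD18 and 1757 in patUPD18, or 1.17-fold higher in matUPD18. The dimmer, 1416823_a_at, read 264.4 and 251.0, a 1.05-fold difference in the same direction. The log2 ratios of the pair, 0.23 and 0.08, differed by 0.15, less than the median gap of 0.36 among 2567 genes with 2 measurable probe sets.

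Ttc39c, whose tetratricopeptide repeats are a fold for binding other proteins, read slightly higher in patUPD18. Its measurable probe set, 1426223_at, read 259.7 in matUPD18 and 290.0 in patUPD18, a 1.12-fold difference (log2 ratio -0.16, or 0.41 and so higher in matUPD18 with the arrays scaled to the hybridisation controls, where the median over all genes was 0.52). The other Ttc39c probe sets lay above the floor but under the measurable limit. They read 111.9 and 107.6 (1446769_at) and 104.1 and 101.9 (1441380_at), with log2 ratios of 0.06 and 0.03. Direction thus differed among the gene's probe sets, with every ratio smaller in size than 0.44.

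Zfp521 is the first measurable gene after Impact. It encodes a protein with many zinc fingers that acts in early neural and blood progenitors and binds the factor EBF1. Its brighter probe set, 1451332_at, read 3493 in matUPD18 and 2887 in patUPD18. The dimmer, 1439909_at, read 455.9 and 351.4. Both were higher in matUPD18, by 1.21-fold and 1.30-fold, and their log2 ratios (0.27 and 0.38) differed by 0.10. This was the most even pair among the flanking genes, since 84.4% of the 2567 genes with 2 measurable probe sets had a gap at least as large. The ratios themselves were ordinary for their signal, with ranks of 503 and 366 by size among 974 probe sets each. Of the 8 neural tube markers, 5 also read higher in matUPD18, and 1, Hes5, was at least 2-fold higher in patUPD18. Their part in the Zfp521 ratio was not tested.

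Among the flanking genes, Ss18 lay in the signal range with the smallest spread. It encodes a subunit of the BAF chromatin remodelling complex and is the gene fused to an SSX gene in synovial sarcoma. Its probe set 1419360_a_at, designed to detect several transcripts of the gene, read 10031 in matUPD18 and 10599 in patUPD18, a 1.06-fold difference (log2 ratio -0.08). In its signal range the SD of log2 ratios was 0.26 and 0.205% of probe sets were at least 2-fold apart. That SD is a spread between probe sets of different genes, not an error of the Ss18 ratio. A ratio of the size seen for Impact lies far outside that spread, and outside the central 95% of every other signal group too. The median ratio of those bright probe sets was itself -0.27, and the direction of the Ss18 ratio turned to higher in matUPD18 after quantile (0.08) or loess (0.10) normalization and with scaling to the hybridisation controls (0.49). The other probe sets of Ss18 were under the measurable limit and read 140.7 and 139.8 (1436257_at) and 121.3 and 122.2 (1419361_at).

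Taf4b had the largest ratio of the flanking genes. It encodes a variant of TAF4, a subunit of the general transcription factor TFIID, and is known for its role in germ cells of ovary and testis. Its probe set 1435302_at read 694.7 in matUPD18 and 357.4 in patUPD18, 1.94-fold higher in matUPD18 (log2 ratio 0.96). Probe set 1435303_at, designed on the same sequence record, read 397.8 and 332.2, a 1.20-fold difference in the same direction (log2 ratio 0.26). The third, 1431193_at, read 54.9 and 53.4, under the floor on both arrays, and gives no ratio. The gap of 0.70 between the measurable ones was matched or passed by 22.8% of genes with 2 measurable probe sets. The larger ratio ranked 36th in size among 974 probe sets of like signal and lay just inside their central 95%, which ran from -0.74 to 0.98. The smaller ranked 547th. By gene, Taf4b ranked 17th of 525 genes of like signal and 16th of the 270 measurable genes of chromosome 18. The other 5 flanking genes ranked between 263rd and 465th in their groups of 524 or 525. The direction of Taf4b is opposite to that of Impact probe set 1415911_at and the same as that of the other measurable Impact probe set, 1446750_at. Of 4 measurable germ cell and pluripotency markers, none was 2-fold apart, 2 read higher on each array, and Pou5f1 and Nanog lay under the floor on both. Their part in the Taf4b ratio was not tested.

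**Figure D2:**
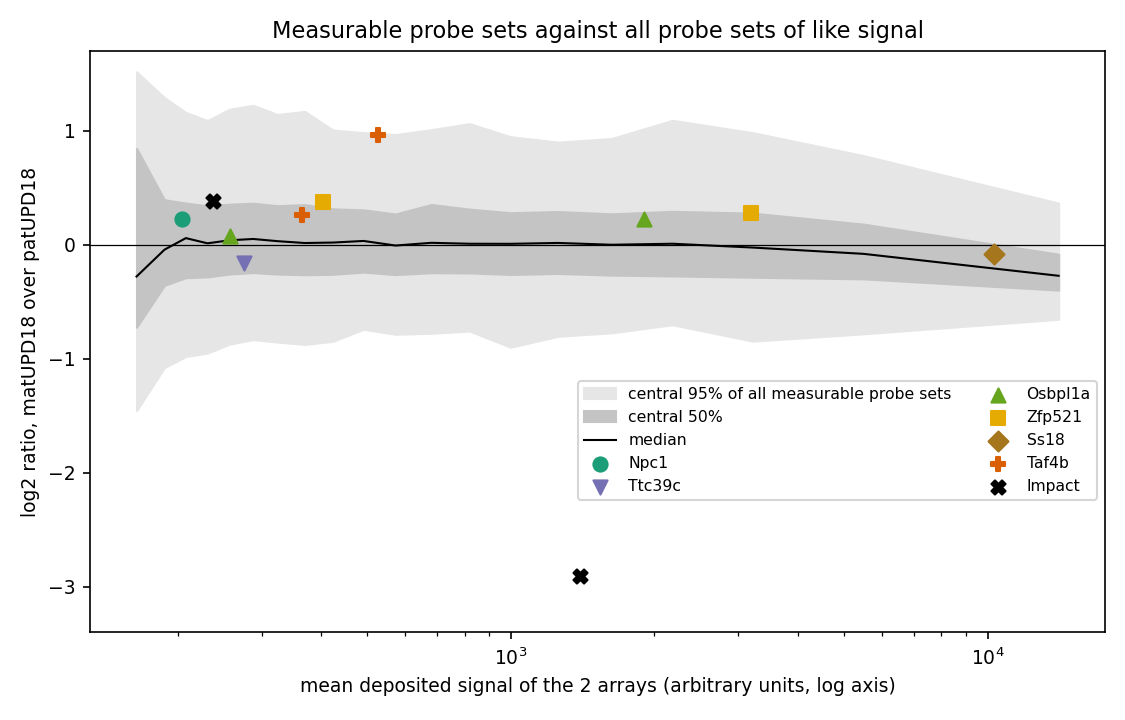
Log2 ratio (matUPD18 over patUPD18) against mean signal (log axis, arbitrary units) for the measurable probe sets of the flanking genes and Impact. The shading gives the central 50% and 95% of all 19481 measurable probe sets in 20 groups of like signal, and the line their median. All 9 probe sets of the flanking genes lie inside the central 95%, with Taf4b at 0.96 near its upper edge, while 1415911_at of Impact lies far below at -2.91.

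Set beside the brightest probe set of Impact, each flanking gene stood apart from it. So did all 263 other measurable genes of chromosome 18, whose lowest log2 ratio was -0.96. Standing apart from Impact is therefore not particular to the flanking genes. On the log2 scale the ratio of the brightest probe set lay above that of Impact by 2.75 (Ttc39c) to 3.87 (Taf4b). Npc1, Osbpl1a, Zfp521 and Ss18 lay above it by 3.14, 3.13, 3.18 and 2.83. Each distance is larger than the 0.44 spread, with the limit that Impact itself rests on 1 of its measurable probe sets. The log2 ratios of its 2 measurable probe sets differ by 3.29, and only the Taf4b distance is larger than that gap. The other Impact probe set, 1446750_at (0.39), lay inside the range of the flanking genes (-0.16 to 0.96).

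In the RefSeq gene order (GRCm38.p6, used for order and names only) the stretch from Rbbp8 to Taf4b holds 49 genes, of which 17 code for protein. Apart from Impact and the flanking genes described, 12 had a probe set and 4 of these were measurable. All 4 lie between Rbbp8 and Npc1 and had slightly higher signals in patUPD18, taking the brightest probe set of each. Cables1, an adaptor of cyclin-dependent kinases, read 471.2 and 566.0 (1.20-fold). A second measurable Cables1 probe set went the other way, with signals of 506.1 and 297.1. Tmem241, which encodes a membrane protein, read 166.3 and 199.7 (1.20-fold). Riok3, an atypical kinase of the RIO family, read 4568 and 4954 (1.08-fold). Its other 2 measurable probe sets had log2 ratios of -0.02 and -0.07. Rmc1, which encodes a partner of the Mon1-Ccz1 complex of late endosomes, read 182.8 and 222.2 (1.22-fold). Tmem241 and Rmc1 reached the measurable limit on the patUPD18 array only, so the filter itself favoured that direction for them. Over the 10 measurable genes of the stretch other than Impact, 4 read higher in matUPD18 and 6 in patUPD18, with a median log2 ratio of -0.10. Tmem241 and Rmc1 are among the 6, so neither the count nor the median shows a lean of the stretch.

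The other 8 genes of the stretch had little or no signal. Hrh4, the histamine H4 receptor gene, is the next gene after Impact in that order and read 16.1 and 12.9, under the floor on both arrays. Cabyr, which encodes a calcium-binding protein of sperm, lies between Ttc39c and Osbpl1a. Its brightest probe set read 70.4 and 139.4, and its others read 20.6 and 6.27, and 13.7 and 4.35, so none was measurable. Lama3 (a laminin chain) read 106.4 and 123.5, Psma8 (a proteasome subunit of the testis) 117.6 and 102.1, and Ankrd29 53.8 and 78.0 by their brightest probe sets. The noncoding genes Gm6277, 6330525I24Rik and 8430422H06Rik read between 10.8 and 84.4. Of these 8 genes none was measurable, and parent-of-origin reading of them could not be judged at these signals.

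A wider window of 20 measurable genes on each side of Impact had a median log2 ratio of 0.21. Of its 40 genes, 25 read higher in matUPD18 and 15 in the other array. Over all measurable genes 46.1% read higher in matUPD18. At the 2-fold limit, 4 of the 40 were higher in matUPD18 and 0 in patUPD18, beside 2.7% and 1.78% of all measurable genes. The 4 genes, named after their values were seen, were the transthyretin gene Ttr (8.88-fold), the desmosomal cadherin gene Dsc2 (2.24-fold), the ubiquitin ligase gene Rnf138 (2.17-fold) and the zinc finger gene Zfp24 (2.09-fold). All lie beyond Taf4b, and Ttr is among the yolk sac markers above. By size of ratio Taf4b came 7th in the window, and the other flanking genes were closer to 0.

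**Figure D3:**
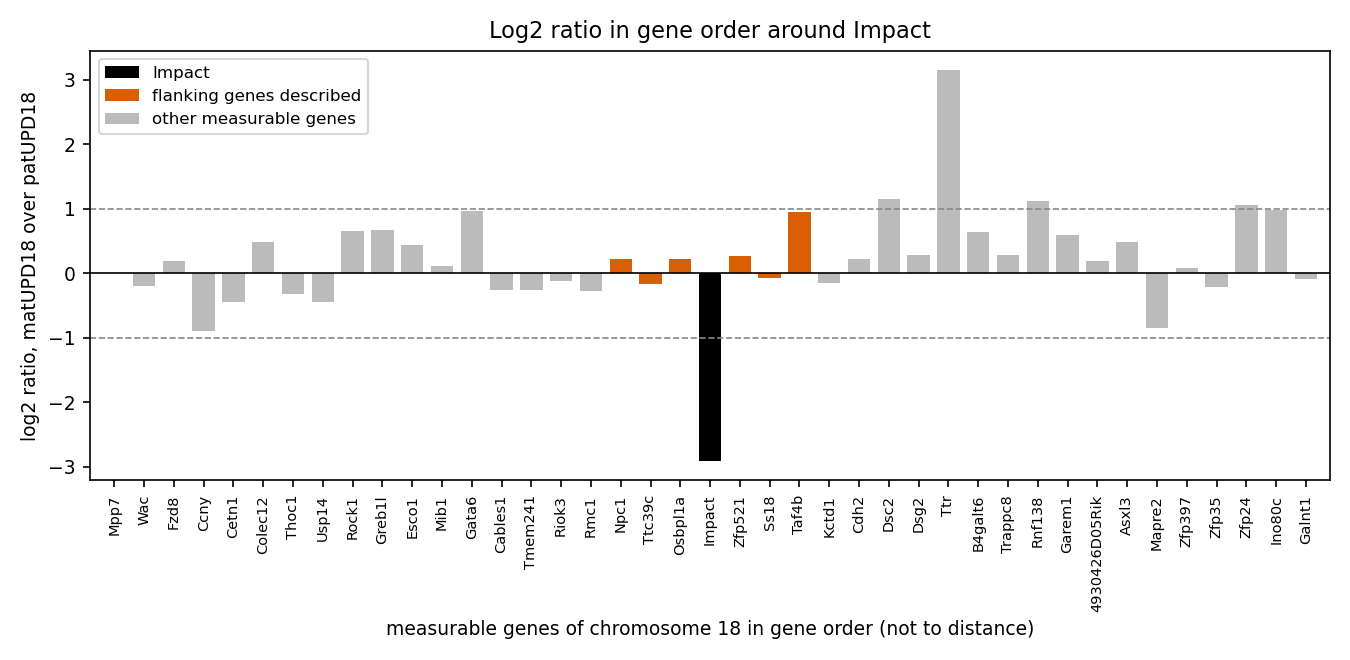
Log2 ratio (matUPD18 over patUPD18) of 41 measurable genes of chromosome 18 in gene order, each by its brightest probe set, with Impact in the middle (black), the flanking genes in orange and other genes in grey. Bars start at 0 and dashed lines mark 2-fold. Impact falls to -2.91, the flanking genes lie between -0.16 and 0.96, and the other genes run from -0.90 (Ccny) to 3.15 (Ttr).

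The protein partners and relatives of the flanking genes lie on other chromosomes for the most part and were listed for context. Counts at 2-fold stand beside 4.48% of all measurable genes (2.7% higher in matUPD18 and 1.78% in patUPD18). Of 18 genes of cholesterol export and synthesis around Npc1, 16 were measurable. The median log2 ratio was -0.20, or -0.23 without Npc1, beside -0.04 for all measurable genes, with 1 gene at least 2-fold higher in matUPD18 and none in patUPD18. The highest were Gramd1b (2.02-fold) and Gramd1c (1.90-fold), which encode sterol carriers at membrane contacts. The lowest were the sterol sensor escort Scap (1.74-fold higher in patUPD18) and the lysosomal acid lipase gene Lipa (1.67-fold). Of 3 measurable Lipa probe sets, 1 had the opposite direction, with a log2 ratio of 0.83. Npc2, whose soluble product hands cholesterol to NPC1, read 13751 and 19690, or 1.43-fold higher in patUPD18. Of 10 measurable genes of the oxysterol-binding family, 8 lay within 2-fold, with a median of -0.07, or -0.13 without Osbpl1a. Osbpl8 was 2.14-fold higher in matUPD18, and Osbp2 was at least 2.65-fold higher in patUPD18, with a matUPD18 signal of 26.6 under the floor.

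For the transcription and chromatin genes, all measurable partners lay within 2-fold in both complexes. Over all measurable genes only 4.48% were at least 2-fold apart, so this is near the background. Of 19 measurable genes listed for the BAF complex, Ss18 included, 8 read higher in matUPD18 and 11 in patUPD18, and the median without Ss18 was -0.07. The extremes were Smarcd3 (1.52-fold) and Arid1b (1.43-fold) higher in matUPD18, and Dpf2 (1.61-fold) and Bcl7c (1.58-fold) higher in patUPD18. Probe sets disagreed for both of the latter: 1 of 2 for Dpf2 and 2 of 4 for Bcl7c had that direction, and the log2 ratios ran up to 0.04 and 0.89. Of 13 measurable TFIID genes, 11 read higher in matUPD18, beside 46.1% of all measurable genes, with a median of 0.30, or 0.28 without Taf4b. Taf4, the closest relative of Taf4b, read 516.7 and 261.8, 1.97-fold higher in matUPD18. Both of its measurable probe sets had that direction. Taf12 (1.59-fold) and Taf6 (1.40-fold) were higher in patUPD18. By the brightest probe set of each, the Taf4b ratio was close to that of Taf4. The other measurable probe sets had smaller log2 ratios, 0.26 for Taf4b and 0.35 for Taf4. The reason for this likeness was not tested.

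Of 4 measurable relatives and partners of Zfp521, 1 was at least 2-fold apart, and their median was -0.40. This was Gata1, an erythroid factor gene that is also among the red cell markers, 2.58-fold higher in patUPD18. The close relative Zfp423 was 1.08-fold higher in matUPD18, and Ebf3, a relative of the EBF1 factor, was 1.35-fold higher in patUPD18. In the Ttc39 family, Ttc39a was measurable besides Ttc39c and was 1.05-fold higher in patUPD18. Rbbp8 encodes CtIP, which starts the trimming of broken DNA ends together with the Mre11, Rad50 and Nbn proteins. Although Rbbp8 was not analysed here, all 12 measurable genes listed with it lay within 2-fold, 6 higher on each array. Their median was -0.04. This is near the background, where 4.48% of all measurable genes were at least 2-fold apart and 46.1% read higher in matUPD18. Among them Atm (1.61-fold) and Dna2 (1.53-fold) were the furthest towards matUPD18, and Exo1 (1.32-fold) and Rbbp7 (1.29-fold) towards patUPD18. The second Exo1 probe set leaned towards matUPD18 instead (log2 ratio 0.12).

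**Figure D4:**
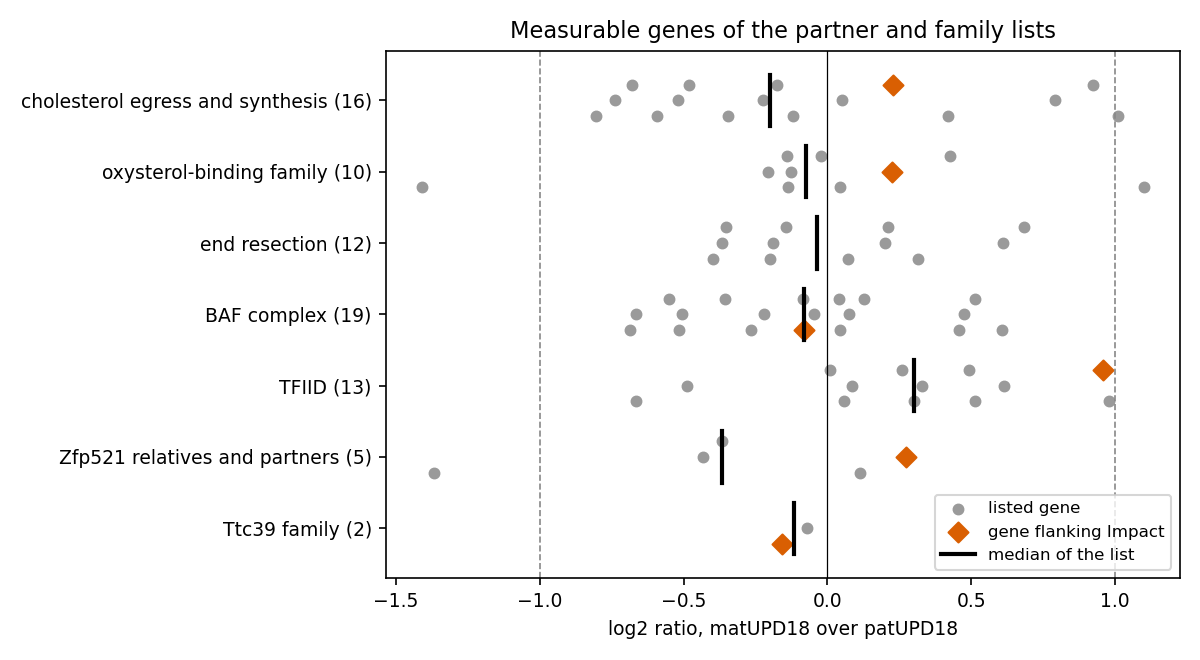
Log2 ratio (matUPD18 over patUPD18) of the measurable genes of 7 lists of partners and relatives, each gene by its brightest probe set, with the number of genes in brackets. Orange diamonds are the flanking genes, grey points the other listed genes, black bars the list medians and dashed lines 2-fold. The TFIID list has the highest median (0.30), with Taf4b near its upper end.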

How the data were processed

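RNA of the embryos was amplified with a RiboAmp kit and biotin-labelled, per the labels' protocols. The authors' deposited intensities are MAS5 signals made with MAS5 and GCOS, per the submitters' processing notes; the sources used here give neither versions nor a genome build. The 2% trimmed mean of the deposited values was 500.003 on one array and 500.004 on the other, so both had been scaled to a common target, and no further normalization was applied. The single array per group limits the precision.

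Of 45101 probe sets, 34958 named 1 gene and 932 several; 34754 matched the RefSeq gene table by Entrez identifier. Each gene was represented by whichever of its probe sets was brightest on average. Ranks of ratio size were taken within 20 equal groups of like mean signal. Named were the flanking genes, Impact and every gene between Rbbp8 and Taf4b with a probe set. Also named were the list genes with the largest ratios (at most 2 per direction) and some of the brightest markers. Npc2, Ccny, Nkx2-5, Msgn1, Epb42, Pou5f1, Nanog and the window genes were named after their values were seen. Members and lists were chosen with earlier results of these data known. Promoter composition, also intended, was not analysed here. Ratio functions were tested on simulated data. Alternatives covered scaling, floor, probe set, threshold and filter. Python 3.11.15, pandas 2.3.3, numpy 2.4.6, statsmodels 0.14.6 and matplotlib 3.10.9 were used.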

Additional observations from a re-analysis of the deposited data

How the results depend on the processing

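Each flanking gene's ratio was recomputed under 9 alternatives. Those that changed the floor or left out _x_at and _s_at probe sets could not move any of these ratios. The brightest probe set of each gene lay above every floor used, and none was of those kinds. The median over measurable probe sets could not move Npc1, Ttc39c or Ss18, which have 1 measurable probe set each. Except when the arrays were scaled to the hybridisation controls, every ratio moved by less than 0.44, with ranges of 0.18 to 0.24 for Npc1, -0.22 to -0.15 for Ttc39c, 0.15 to 0.24 for Osbpl1a, 0.27 to 0.33 for Zfp521, -0.08 to 0.10 for Ss18 and 0.61 to 0.97 for Taf4b. The lowest Taf4b value was the median over its measurable probe sets. Scaling to the hybridisation controls raised all ratios alike, by construction: Npc1 to 0.79, Ttc39c to 0.41, Osbpl1a to 0.79, Zfp521 to 0.84, Ss18 to 0.49, Taf4b to 1.52, and their median to 0.79, while the median of all measurable genes rose to 0.52. Of the 6 genes, 4 lay above the median of all measurable genes with the deposited scaling, and 5 after quantile or loess normalization. With scaling to the hybridisation controls, 1 probe set of the flanking genes (Taf4b) and 3633 of all measurable probe sets were at least 2-fold apart. The latter count was 1080 as deposited, 513 with a 60th percentile floor and 453 with only probe sets reaching the 75th percentile. At 1.5-fold, 1 probe set of the flanking genes and 4101 in all passed, and at 4-fold 59 in all passed. The precision is limited by the single array per genotype, by signals near the limit for Npc1 and Ttc39c, and by the absence of a second measurable probe set for Npc1, Ttc39c and Ss18.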
